A study of Danio rerio with 27 samples.

Results

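The genes described here are 10 components of the piRNA pathway: piwil1, piwil2, ddx4, tdrd1, tdrd6, tdrd9, tdrkh, asz1, pld6 and henmt1. They were chosen by name for their known roles, with earlier results of these data known. All 10 were found among the 32524 genes of the deposited tables, of which 29201 have a symbol. Poly(A) RNA was measured in 9 tissues of adult wild-type TLAB zebrafish, a laboratory strain, with 3 libraries per tissue. The tissues were testis, brain, heart, intestine, liver, muscle, skin, spleen and tail, and no fish carried a mutation or received a treatment. The labels give neither the sex of the fish behind the 8 tissues other than testis nor whether a library came from a single fish or from a pool, so the spread between libraries may be partly technical. Ovary was not analysed here.

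PIWI-interacting RNAs (piRNAs) are small RNAs of animal germ cells that guide Piwi-class Argonaute proteins to transposon transcripts, which are then cleaved or silenced. Precursor transcripts are cut at the mitochondrial surface, loaded onto Piwi proteins in granules called nuage, trimmed, and methylated at their 3′ ends. In zebrafish the pathway acts in both testis and ovary, and fish without Piwi proteins lose their germ cells or fail to complete gametogenesis. Tudor domain proteins hold the complexes together by binding methylated arginines on the Piwi proteins.

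Depth was between 5100481 and 14151312 estimated counts in 26 libraries and 91119844 in testis replicate 3. Levels are given in TPM (transcript abundance scaled for transcript length, which can be compared between genes) or, for low values, as estimated counts and CPM (counts relative to the library's total count). A count of 3 was taken as the floor below which a level was not read as a difference. Markers of brain, heart, intestine and liver were highest in the tissue the labels name, as were hbaa1 and tlx1 for spleen, whereas the third spleen marker, cd74a, averaged 1390 TPM in spleen and 1710 TPM in tail. Skin and muscle were not told apart by theirs. The muscle creatine kinase gene ckma averaged 16690 TPM in muscle and 14570 TPM in skin, and the skin keratin gene krt5 averaged 3046 TPM in skin, 7741 TPM in muscle and 35860 TPM in tail. The fin fold gene and1 was no higher in tail (10.1 TPM) than in brain (10.4 TPM).

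The first question was where the 10 genes are transcribed. All 10 were higher in testis than in any other tissue. For none of them did the 3 testis libraries overlap the 24 other libraries. How many of all genes show no such overlap was not counted. By the test described below, 12.3% of all genes tested were called higher in testis than in each other tissue. Of the 10, 6 passed the filter on low values only through the testis libraries. The summed level of the 10 was 2558 to 2911 TPM in testis (median 2825), against 0.591 to 39.5 TPM in the other libraries (median 5.59). Without tdrkh, the only gene with sizeable levels elsewhere, the other 9 summed to between 0.0379 and 19.5 TPM outside testis. Levels in bulk tissue show neither which cells held these transcripts nor how much RNA each cell held.

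**Figure D1:**
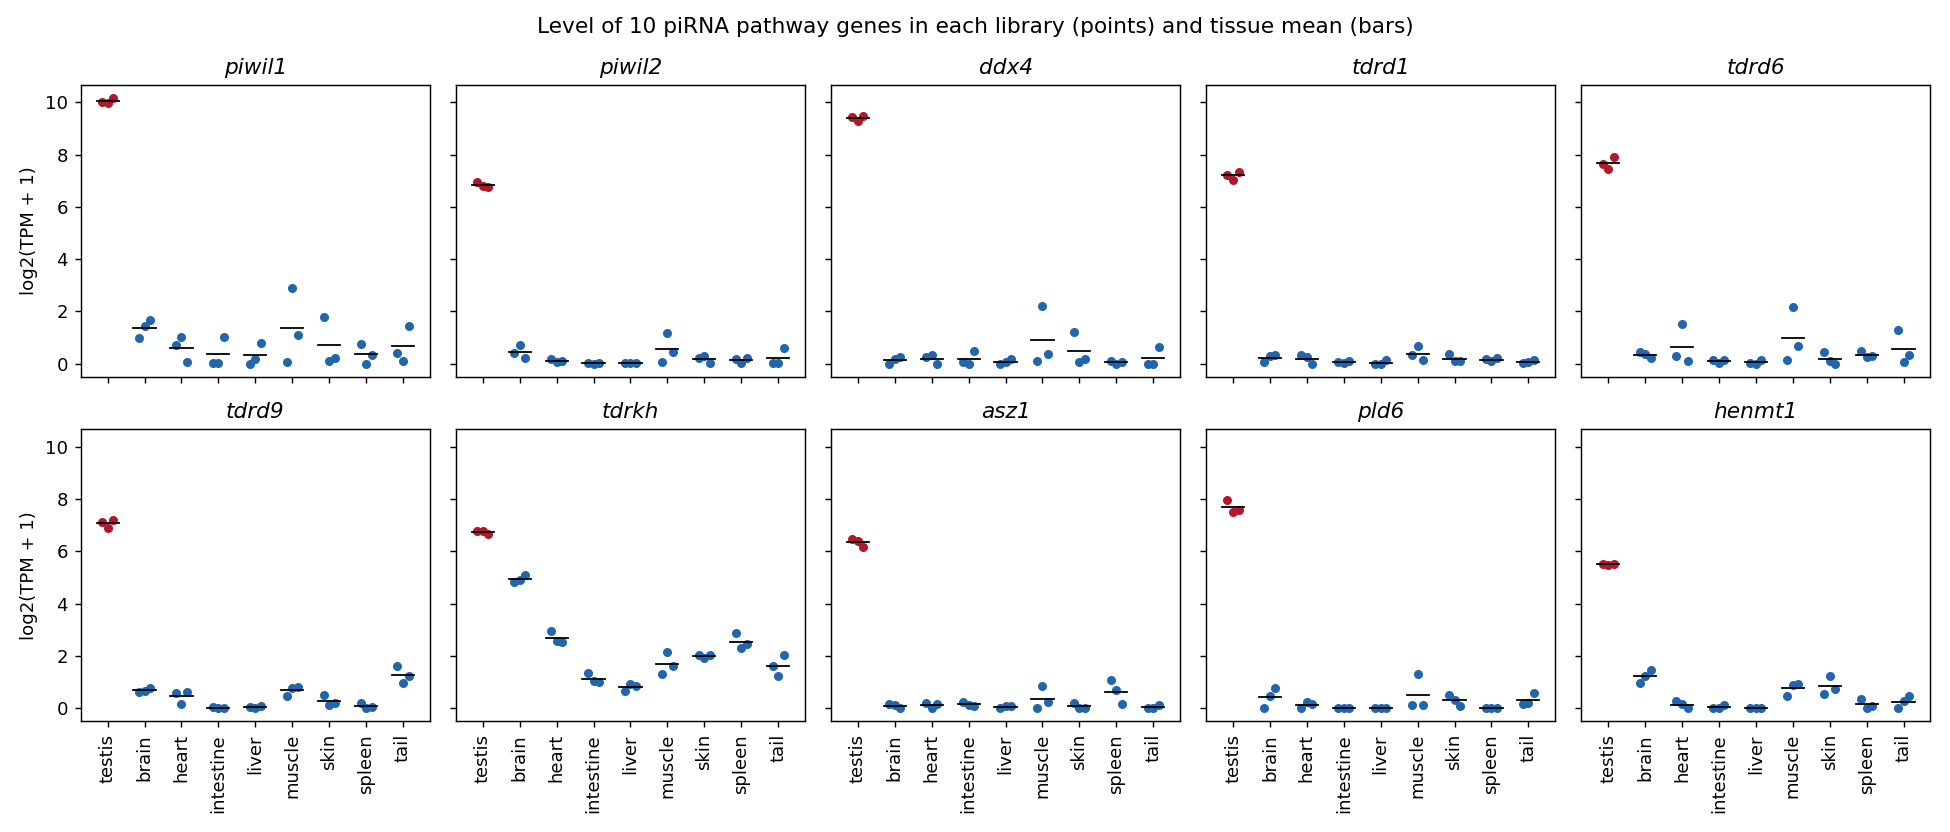
Level of each gene on the log2(TPM + 1) scale (vertical axis) in each of 27 libraries, grouped by tissue (horizontal axis), with testis in red and the other tissues in blue. Points are libraries and bars are the mean of the 3 log values. Every testis point lies above every other point of its gene, and tdrkh is the gene with a second high tissue, brain.

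piwil1 (ENSDARG00000041699) encodes Ziwi, the Piwi protein of zebrafish nuage that is loaded mainly with antisense transposon piRNAs. It had 1040, 992 and 1141 TPM in testis replicates 1, 2 and 3, against 0 to 6.55 TPM in the 24 other libraries (median 0.499). The testis libraries lay within a narrow band, with a mean of 1058 ± 76.5 TPM (SD, n = 3), and piwil1 ranked 124 by mean testis level among the 25245 genes tested. The highest other library was muscle replicate 2, and the lowest testis library exceeded it 151-fold. Against the mean of the 8 other tissues, the fitted log2 fold change in testis was 10.00 (SE 0.504, adjusted p = 1.2e-14, edgeR quasi-likelihood test with Benjamini-Hochberg adjustment over all genes tested). Each SE given with edgeR is the absolute log2 fold change over the square root of the test's F statistic. It restates the test, so where a p-value is left out below, the SE adds no support either. The mean CPM of the 3 testis libraries was 508-fold the CPM of the pooled muscle libraries (interval 415 to 628) and 9040-fold that of the pooled intestine libraries, where only 8 counts were found (4590 to 20900). Such ratios are given below as mean testis CPM over pooled tissue CPM, with a 95% exact Poisson interval for the tissue's counts, which covers counting error only. They are scaled by library totals alone. With that scaling the median testis log2 fold change of all genes was 1.39, against 0.218 by the main test, so the ratios depend on the scaling. By mean TPM, piwil1 in testis was 412-fold above muscle and 2920-fold above intestine, where replicate 3 held 6 of the 8 counts.

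piwil2 (ENSDARG00000062601) encodes Zili, the partner Piwi protein, which is needed for germ cell differentiation and meiosis in zebrafish. Its testis levels were 122, 110.2 and 106 TPM, against 0 to 1.28 TPM elsewhere (median 0.0625). It was therefore far less abundant than piwil1 as a transcript. The piwil1 level was 8.5, 9.0 and 10.7 times the piwil2 level in testis replicates 1, 2 and 3. Against the mean of the other tissues the log2 fold change of piwil2 was 8.22 (SE 0.290, edgeR). Like ddx4, tdrd1, tdrd9, asz1 and pld6, piwil2 passed the filter on low values only through the testis libraries. No p-value is therefore given for these genes in testis. The mean testis CPM was 271-fold the pooled CPM of muscle (187 to 407), where piwil2 had 28 counts in all.

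ddx4 (ENSDARG00000014373) encodes Vasa, the DEAD-box RNA helicase of nuage and the classic marker of germ cells in zebrafish. It had 687, 616 and 714 TPM in testis, against 0 to 3.67 TPM elsewhere (median 0.0863), and 7 of the 24 other libraries held no count. ddx4 stood at 0.661, 0.621 and 0.625 times the piwil1 level in the 3 testis libraries, so both genes kept nearly the same proportion in each. Its log2 fold change against the mean of the other tissues was 10.62 (SE 0.479, edgeR). The mean testis CPM was 603-fold the pooled CPM of muscle (456 to 816) and 11500-fold that of spleen, where only 3 counts were found (3950 to 56000).

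The 4 Tudor domain genes had intermediate levels. tdrd1 (ENSDARG00000007465), a nuage scaffold that binds both Piwi proteins in zebrafish, had 148, 131 and 162 TPM in testis, against at most 0.590 TPM elsewhere (median 0.0900). No library outside testis reached 1 TPM of tdrd1, and the lowest testis library was 222-fold above the highest other library, the widest such gap among the 10 genes. The log2 fold change of tdrd1 was 9.06 (SE 0.305, edgeR).

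tdrd6 (ENSDARG00000070052), a large multi-Tudor protein of germ plasm and nuage in zebrafish, had 198, 175 and 237 TPM in testis, against 0 to 3.55 TPM elsewhere (median 0.179). Replicate 3 was the high library, and the relative spread of 15.4% (SD over mean) was exceeded among the 10 genes only by that of pld6. The log2 fold change of tdrd6 was 8.77 (SE 0.402, adjusted p = 2.1e-15, edgeR). tdrd9 (ENSDARG00000013453), which joins a helicase to a Tudor domain and is needed for transposon silencing in mouse testis, had 139.5, 118 and 144 TPM in testis, against 0 to 2.04 TPM elsewhere (median 0.256). Its log2 fold change was 8.26 (SE 0.262, edgeR).

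tdrkh (ENSDARG00000053474), the mitochondrial Tudor protein that recruits the trimming enzyme in mouse and silkworm, had 107, 109 and 99.9 TPM in testis, against 0.553 to 33.4 TPM elsewhere (median 3.07). It was the only one of the 10 genes with a count in every library. The lowest testis library exceeded the highest other library, brain replicate 3, by 2.99-fold, the narrowest such gap among the 10 genes. Against the mean of the other tissues the log2 fold change of tdrkh was 3.72 (SE 0.131, adjusted p = 3.4e-17, edgeR), smaller than that of the other 9 genes.

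Of the mitochondrial genes, pld6 was above asz1 in each testis library. asz1 (ENSDARG00000004823), an ankyrin repeat protein of the mitochondrial membrane that holds nuage there in mouse, had 88.6, 81.9 and 70.1 TPM in testis, against 0 to 1.09 TPM elsewhere (median 0.0928). pld6 (ENSDARG00000059951), the endonuclease known as Zucchini in Drosophila that cuts piRNA precursors, had 249, 182 and 192 TPM in testis, against 0 to 1.47 TPM elsewhere (median 0.0674). The pld6 level was 2.81, 2.22 and 2.74 times the asz1 level. The log2 fold change of asz1 was 8.22 (SE 0.326, edgeR). No pld6 count was found in intestine, liver or spleen, so its fitted fold depends on the model's prior count and is not given. The mean testis CPM of pld6 was therefore set against a floor of 3 counts over the pooled libraries of a tissue. Scaled by library totals alone, it was at least 2940-fold higher in testis than in intestine, 2670-fold higher than in liver and 2290-fold higher than in spleen. These are bounds for the counts only, and another scaling would move them.

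henmt1 (ENSDARG00000018871), the methyltransferase that protects piRNA 3′ ends, was the least abundant of the 10 genes in testis and the most even. It had 45.0, 43.5 and 44.3 TPM in testis, a relative spread of 1.69%, against 0 to 1.76 TPM elsewhere (median 0.198). No henmt1 count was found in liver, and testis was at least 457-fold higher than liver against the same floor and with the same scaling by library totals. The mean testis CPM was 39.2-fold the pooled CPM of brain, its next tissue (27.4 to 58.0).

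Within testis, the 10 genes fell in the order piwil1, ddx4, pld6, tdrd6, tdrd1, tdrd9, piwil2, tdrkh, asz1 and henmt1 by mean TPM. The ranges over 3 libraries overlapped between pld6 and tdrd6, between tdrd1 and tdrd9, between tdrd9 and piwil2, and between piwil2 and tdrkh, so those neighbours were not separated beyond their spread. piwil1 alone made up 36.8 to 39.2% of the summed TPM of the 10 genes and ddx4 24.1 to 24.5%. The deeper library, replicate 3, was the highest of the 3 for piwil1, ddx4, tdrd1, tdrd6 and tdrd9 and the lowest for piwil2, tdrkh and asz1.

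All 10 genes passed the filter of at least 1 TPM in at least 3 of 27 libraries, but 6 of them (piwil2, ddx4, tdrd1, tdrd9, asz1 and pld6) passed it only through the testis libraries and so had to differ. A gene was called where the adjusted p was under 0.05 and the absolute log2 fold change 1 or more. All 10 were called higher in testis, where 33.5% of all genes tested were called higher and 20.8% lower. All 10 were also called higher in testis than in each of the 8 other tissues taken alone, as were 12.3% of all genes tested. The median log2 fold change was 8.51 over the 10 genes, also with pld6 and henmt1 set to their bounds, and 0.218 over all genes tested.

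The specificity index tau, which is 0 for equal levels in all tissues and 1 for a gene found in a single tissue, was taken over mean log2(TPM + 1) per tissue. It lay between 0.923 (henmt1) and 0.977 (tdrd1) for 9 genes. tdrkh had a tau of 0.677, above 59.1% of all genes tested, whereas henmt1 stood above 89.2% and tdrd1 above 97.0%. The size of the gap depended on the scale. On plain TPM the index was 0.941 for tdrkh and 0.991 to 1.0 for the others, and on log2(TPM + 0.1) it was 0.499 for tdrkh and 0.813 to 0.911 for the others.

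The second question was how the other parts of the pathway, and the separate microRNA pathway, were distributed. Of 22 further piRNA pathway genes listed, 16 were matched to the files and tested. Of these, 7 passed the filter only through the testis libraries and so had to be higher. In all, with these 7 included, 13 were called higher in testis and 1 lower, where 33.5% of all genes tested were higher and 20.8% lower. The list, again with the 7 included, had a median of 7.83 on the log2 fold change scale. fkbp6, a co-chaperone that acts in piRNA loading in mouse, tdrd15, a multi-Tudor gene, and exd1 had no count in at least 1 tissue, so their fitted folds are not given, and with these 3 at the floor of 3 counts the median was 7.74. Among the genes with a count in every tissue, the highest values were those of tdrd7a (9.65), a nuage Tudor gene, gtsf1 (8.75), a Piwi cofactor in mouse and Drosophila, and rnf17 (8.64), a Tudor gene of mouse spermatids. At the other end, snd1, a Tudor nuclease found in most cells, was lower in testis by the test, with a log2 fold change of -2.00 (SE 0.178, adjusted p = 5.6e-10, edgeR). It stayed negative in all 13 settings tried, at -2.04 to -0.553, and was called in 10 of them. In mean TPM, snd1 had 15.6 in testis, and the other tissues lay between 16.9 (liver) and 37.2 (brain). Its testis libraries (12.7 to 19.9 TPM) overlapped those of liver (11.4 to 20.4 TPM). tex15 (0.24) and tdrd3 (0.79) were not called. prmt5, the arginine methyltransferase that prepares Piwi proteins for Tudor binding and also acts in somatic cells, was called higher with a log2 fold change of 1.65.

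Among 10 tested genes of the microRNA pathway, which uses Argonaute proteins of the Ago class in nearly all cells, 1 was called higher in testis (drosha, the nuclear microRNA processing enzyme, 1.52, followed by xpo5 at 0.73, not called) and 2 lower (ago4, -1.41, and ago1, -1.09). Of all genes tested, 33.5% were called higher in testis and 20.8% lower, so 2 of 10 lower is near the share of all genes. The list had a median log2 fold change of -0.328. The direction of this list depended on the scaling. With library size alone 4 were called higher and none lower, and the median was 0.869, while the median of all genes moved to 1.39. drosha was called higher in all 13 settings. ago1 was called lower in 7 of 13 and turned positive in others, with a range of -1.13 to 0.273.

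**Figure D2:**
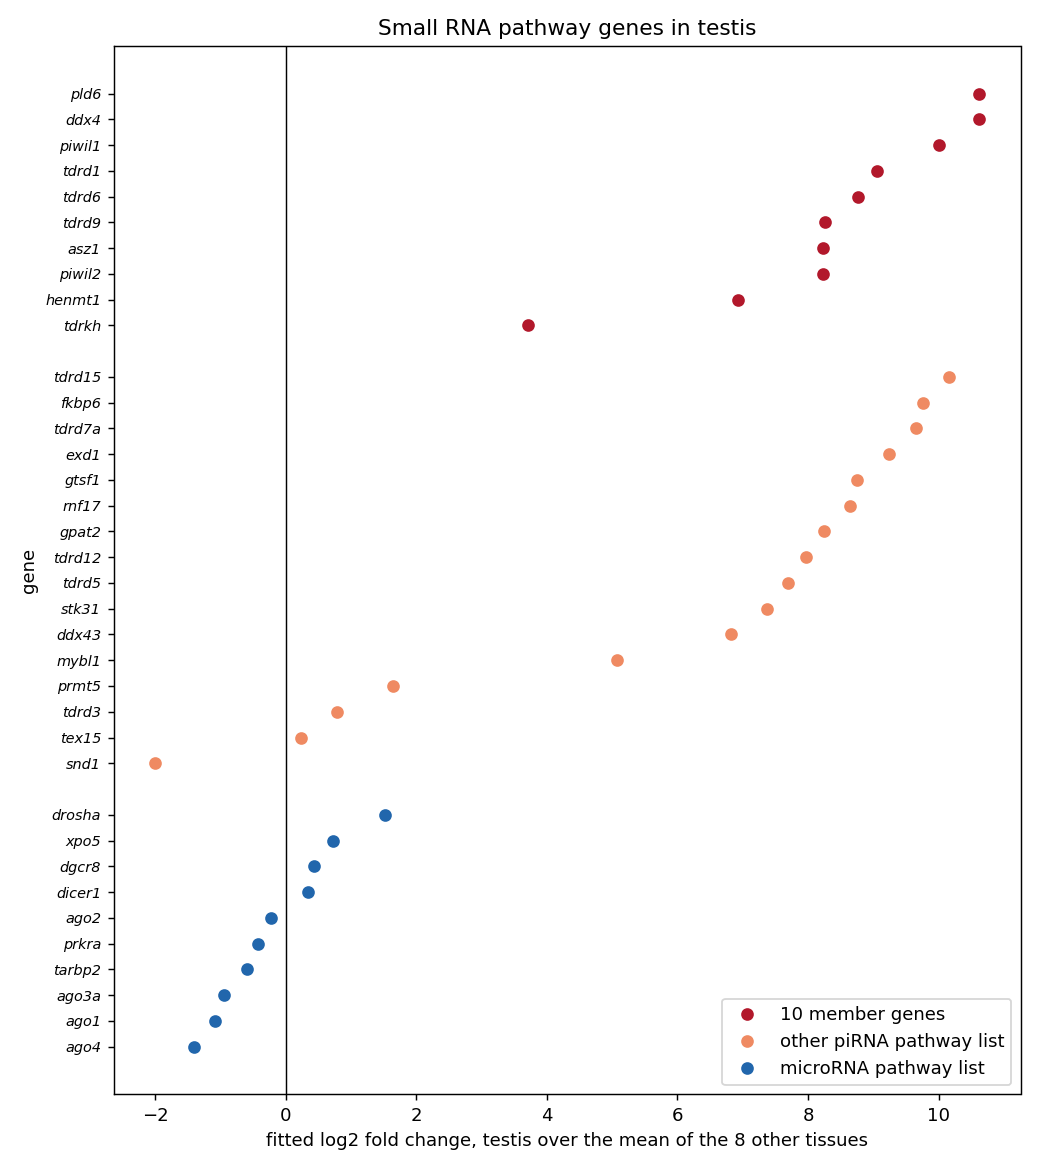
Fitted log2 fold change of testis over the mean of the 8 other tissues (horizontal axis) for each gene (vertical axis): the 10 piRNA pathway genes described here, 16 other piRNA pathway genes and 10 microRNA pathway genes. tdrkh, at 3.72, is the lowest of the 10, most of the other piRNA pathway genes lie above 4, and the microRNA pathway genes lie between -1.41 and 1.52; the points of pld6, henmt1, tdrd15, fkbp6 and exd1 depend on the prior count.

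The third question was what remained of these genes outside testis. tdrkh was the exception among the 10. It had 27.7, 29.2 and 33.4 TPM in brain (303, 383 and 365 counts), against 4.72 to 6.77 TPM in heart and 3.94 to 6.37 TPM in spleen. The brain libraries lay above all 21 libraries of the other non-testis tissues. In skin it had 2.97 ± 0.177 TPM, in muscle 2.35 ± 1.02, in tail 2.16 ± 0.903, in intestine 1.19 ± 0.288 and in liver 0.747 ± 0.173 (SD, n = 3 each). In this order, the ranges of heart and spleen, of skin and muscle, of muscle and tail, and of tail and intestine overlapped.

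Testis exceeded brain for tdrkh by a log2 fold change of 1.98 (SE 0.231, adjusted p = 7.5e-08, edgeR). The mean testis CPM was 4.59-fold the pooled brain CPM (4.33 to 4.89), and the ratio of mean TPM was 3.5. Among the 24 libraries outside testis, brain stood above the mean of the 7 others for tdrkh, at a log2 fold change of 2.04 (SE 0.162, adjusted p = 2.2e-10, edgeR), where 27.2% of the 23222 genes tested were called higher in brain. The same gene was lower in tail by -1.51 on that scale (SE 0.228, adjusted p = 9.0e-06), where 16.1% of genes were called lower. With limma on log2(TPM + 1) the tail value was -0.64 and fell short of the fold threshold. There, liver (-1.57, adjusted p = 8.6e-08) and intestine (-1.20, adjusted p = 4.4e-06) passed it as lower instead. By edgeR these 2 tissues stood at -0.77 and -0.93, short of the threshold. Which tissue was called lower for tdrkh therefore depended on the method.

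**Figure D3:**
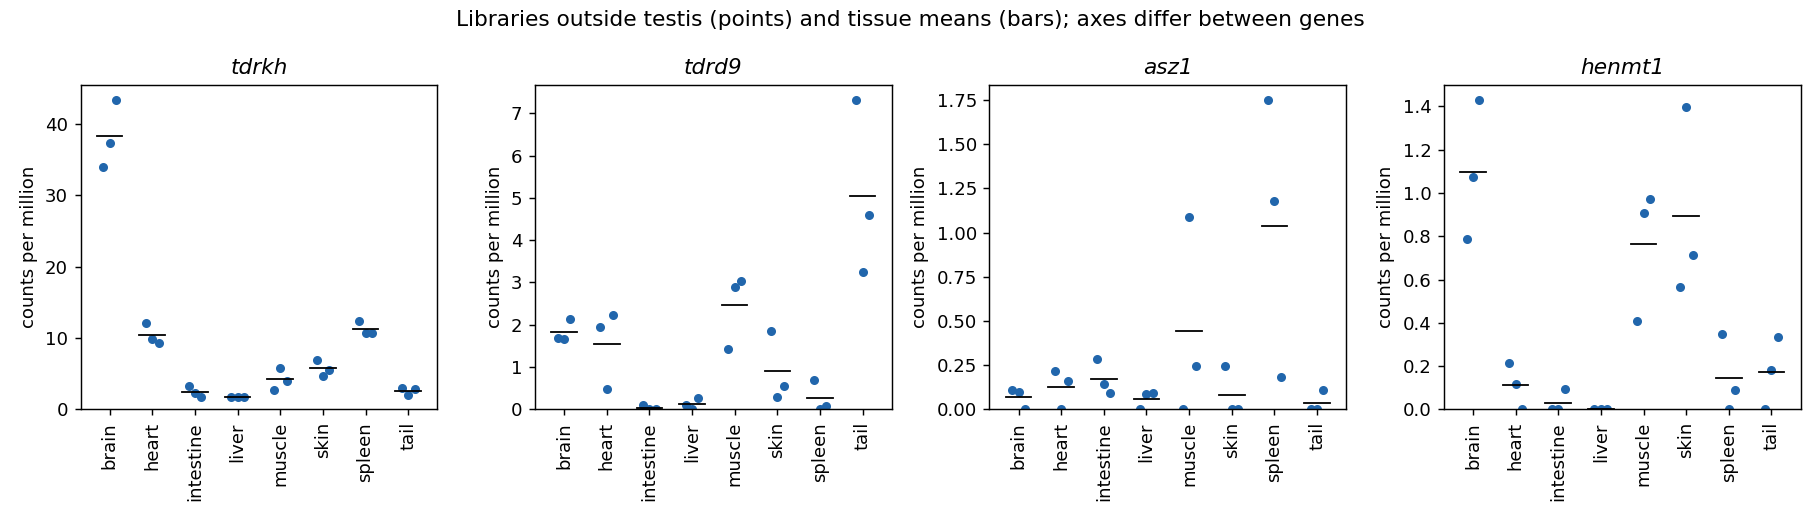
CPM (vertical axis, a separate scale per gene) of tdrkh, tdrd9, asz1 and henmt1 in each of the 24 libraries outside testis, grouped by tissue (horizontal axis). Points are libraries and bars are tissue means; brain stands apart for tdrkh, tail is highest for tdrd9 and spleen for asz1, while henmt1 has no count in liver.

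henmt1 was also found in brain, at a far lower level than tdrkh. Over the brain libraries, tdrd9 (50 counts), piwil1 (47) and tdrd6 (38) had more counts than henmt1 (30). henmt1 had 7, 11 and 12 counts in the 3 brain libraries (0.951, 1.36 and 1.76 TPM), 7, 14 and 9 counts in skin, and 4, 5 and 8 counts in muscle. In heart, intestine, spleen and tail no library held more than 4 counts, and in liver none was found. In TPM, the range of skin overlapped those of both brain and muscle, whereas those of brain and muscle did not overlap. Outside testis, henmt1 passed the filter on low values only through brain replicates 2 and 3 and skin replicate 2. Its calls in brain and skin are therefore given without p-values. By edgeR, henmt1 was called higher than the mean of the other non-testis tissues in brain, skin and muscle (adjusted p = 0.0045 in muscle). The muscle call was lost in 3 of 35 alternatives. One of these was the fit without muscle replicates 2 and 3, which leaves muscle replicate 1 alone. Of all genes tested, 27.2% were called higher in brain, 19.6% in skin and 18.5% in muscle. henmt1 was called lower in liver (adjusted p = 0.046, where 23.1% of genes were called lower), a call that was lost in 22 of 35 alternatives. Because all liver libraries were at 0, the fitted folds depend on the prior count and are not given. On the log2(TPM + 1) scale with limma, the difference was 0.92 in brain, 0.46 in skin and 0.39 in muscle, all under the fold threshold of 1.

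Only 4 of the 10 genes (piwil1, tdrd6, tdrkh and henmt1) passed the filter of 1 TPM in at least 3 of the 24 libraries outside testis. With the filter by counts of edgeR (filterByExpr), 7 genes were kept among 22626, and tdrd9, asz1 and piwil2 could be tested as well. tdrd9 had 96, 36 and 41 counts in tail (2.04, 0.961 and 1.35 TPM), against 14, 16 and 25 counts in muscle and 15, 17 and 18 in brain. All 3 tail libraries were above every other non-testis library in TPM. Under that filter tdrd9 was higher in tail than in the 7 other non-testis tissues on average, at a log2 fold change of 3.08 (SE 0.448, adjusted p = 5.5e-06, edgeR), where 18.7% of genes were called higher. It was also called higher in muscle (2.07, adjusted p = 0.0033), where 19.1% of genes were. Brain was not called by the same test (0.54, adjusted p = 0.37), although tdrd9 averaged 0.614 TPM in muscle and 0.607 TPM in brain. The muscle call is therefore not read as a level above brain. Intestine held a single tdrd9 count in all and spleen 9, and both were called lower (adjusted p = 0.0018 and 0.043), where 18.4% of genes were called lower in intestine and 17.1% in spleen. With no filter on low values the spleen call was lost (-1.92, adjusted p = 0.055). The mean testis CPM of tdrd9 was still 91.9-fold its pooled CPM in tail (79.2 to 107).

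asz1 had 20, 6 and 2 counts in spleen, against 3 or fewer in each of the other libraries outside testis except muscle replicate 2, which had 6. The 3 spleen libraries differed widely from each other. Under the count filter, asz1 was called higher in spleen by a log2 fold change of 2.45 (SE 0.682, edgeR), where 15.8% of genes were called higher. asz1 passed that filter only through spleen replicates 1 and 2 and muscle replicate 2, so no p-value is given for this call. The mean testis CPM of asz1 was 96.4-fold its pooled CPM in spleen (66.7 to 145).

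Muscle was the tissue next to testis for piwil1, piwil2, ddx4, tdrd1, tdrd6 and pld6, and in each of the 6 the highest muscle library was replicate 2. Muscle replicate 2 had 74 counts of piwil1, 77 of tdrd6 and 41 of ddx4, whereas replicate 1 had 1, 6 and 2 counts and replicate 3 had 20, 33 and 6. In that library each of the 9 genes other than tdrkh had more than 3 counts, and they stood at 0.434 to 2.13% of their mean testis CPM, with a median of 0.799%. piwil1 (log2 fold change 2.88, SE 0.778, adjusted p = 0.0062) and tdrd6 (2.69, SE 0.637) were called higher in muscle by edgeR with all libraries. Outside testis, tdrd6 passed the filter only through muscle replicate 2, heart replicate 2 and tail replicate 1, so its call is given without a p-value. Without muscle replicate 2 the values were 0.85 (adjusted p = 0.64) for piwil1 and 1.31 (adjusted p = 0.27) for tdrd6. Without both replicates 2 and 3 they were -2.54 and -0.50, and neither was called. piwil2 was called higher in muscle only under the count filter (1.72, SE 0.640, adjusted p = 0.045), with 3, 16 and 9 counts in the 3 libraries.

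The same library held other testis transcripts. A list of 11 meiosis and sperm genes, among them the synaptonemal complex genes sycp1, sycp2 and sycp3, summed to 45.1 TPM in muscle replicate 2, and none of the 11 was at 0. The sum was 13.3 TPM in replicate 3 and 1.57 TPM in replicate 1, and it lay between 0.125 and 12.5 TPM in the 21 libraries of the other non-testis tissues. In testis the list summed to 2227 to 3059 TPM. The median of the list in muscle replicate 2 was 1.48% of the testis CPM, whereas the median of 7 genes of testis somatic cells was 0.162%, and 1 of those 7 was at 0. The part of testis RNA in the muscle values was not tested.

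**Figure D4:**
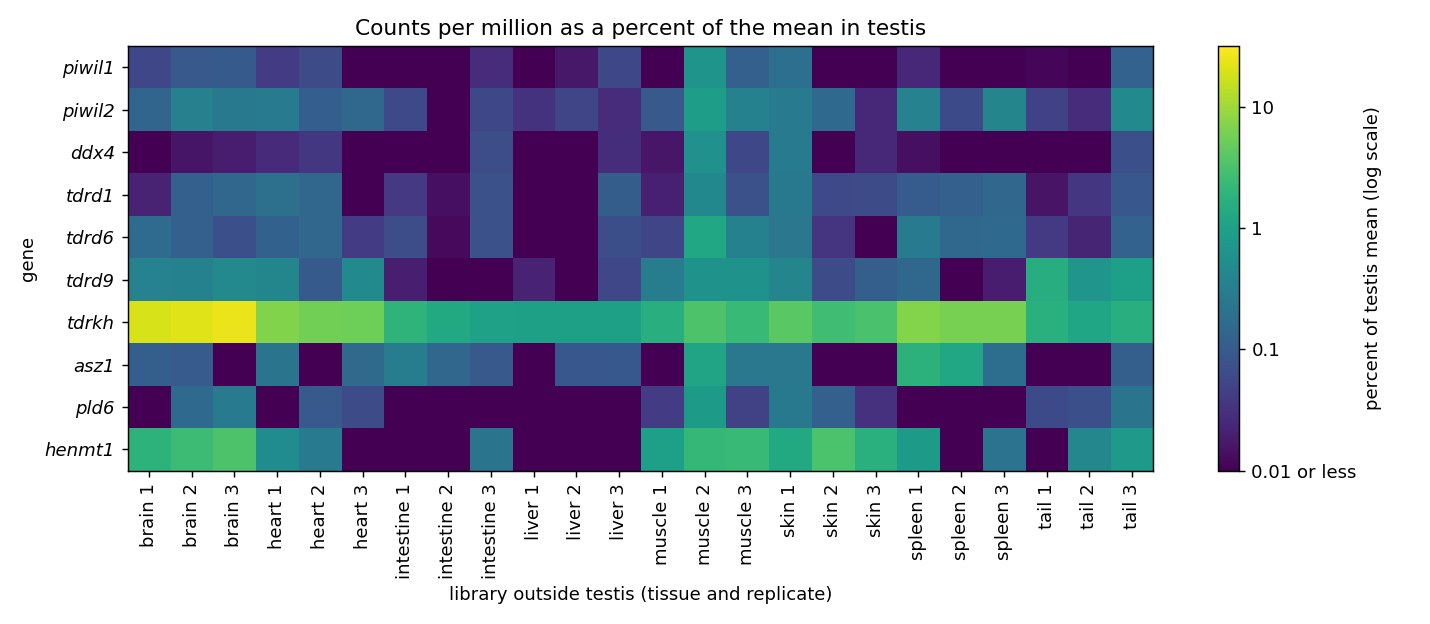
CPM of each gene (rows) in each library outside testis (columns) as a percent of the gene's mean in testis, on a logarithmic colour scale that is cut off at 0.01%. The tdrkh row is bright throughout and brightest in brain, and the muscle replicate 2 column shows 9 genes between 0.434 and 2.13%.

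Skin replicate 1 was the next library by these counts. It had 48 counts of piwil1, 41 of ddx4, 35 of tdrd6 and 23 of tdrd9, whereas the other skin libraries had at most 2 of piwil1, 4 of ddx4, 4 of tdrd6 and 7 of tdrd9. There, piwil1, piwil2, ddx4, tdrd1, tdrd6, asz1 and pld6 stood at 0.19 to 0.277% of their testis CPM, while tdrd9 stood at 0.389% and henmt1 at 1.33%. The meiosis and sperm list had a median of 0.244% in that library and the testis somatic list a median of 0.254%. The part of testis RNA in the skin values was not tested. At the other end, liver replicate 1 held 3 counts of the 9 genes in all and intestine replicate 2 held 6, so levels of these genes there were not detectable at this depth.

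A last description concerns which genes followed the same pattern. Over the 27 libraries on log2(TPM + 1), the 10 genes correlated with each other at a Pearson r of 0.951 or more, except for tdrkh, whose r with the others was 0.768 to 0.859. Because testis sets these values, with 3 of the 27 libraries far above the rest, r is given as a description only. Outside the 10, the genes most like piwil1 were rad21l1 (r = 0.992), a meiotic cohesin gene, then zte38 and zgc:193811 (0.991 each). For ddx4 they were terb1 (0.998), a gene of meiotic telomere attachment, then ELAVL2 and stag3, of which stag3 encodes a meiotic cohesin. For tdrd1 the first was tdrd15 (0.999), another Tudor gene of the pathway, followed by akap1a and topaz1. Genes with a symbol at an r of 0.99 or more numbered 312 for tdrd1, 283 for piwil2, 237 for pld6, 134 for ddx4 and 108 for asz1. There were 7 for piwil1, 3 each for tdrd6 and tdrd9, and 0 for tdrkh and henmt1. Where such genes are many, the 3 named are near ties with the rest.

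The genes most like tdrd6 were knl1 (0.993), sgo2 and ASPM, which act at kinetochores, centromeres and spindle poles, whereas tdrd9 was most like MEI4 (0.994), a gene of meiotic break formation, chtopb and sycp2. For asz1 they were KLHL10 (0.995), pimr94 and TBPL2, and for pld6 si:ch211-153i8.2 (0.997), terb1 and rad21l1. For piwil2 they were si:dkey-202c14.3 (0.998), ZSWIM2 and pimr204, and for henmt1 ZMYND10 (0.989), si:ch211-208g12.1 and ADAD1. tdrkh again stood apart. The genes most like it were CEP131 (0.986), CFAP97 (0.984) and WDR35 (0.983), of which CEP131 and WDR35 are known for roles in centriolar satellites and cilia. Like tdrkh, each was also found in brain, and their levels in the other tissues are not given here. CEP131 averaged 46.9 TPM in testis and 11.9 TPM in brain, CFAP97 45.6 and 15.4 TPM, and WDR35 92.1 and 24 TPM.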

How the data were processed

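Poly(A) RNA of 27 libraries was sequenced from strand-specific cDNA. The submitters' processing notes name cutadapt 1.18, HISAT2 2.1.0, SAMtools 1.9, kallisto 0.43.0 and GRCz11; the annotation version is not given in the sources used here. The authors deposited, per gene and library, an estimated count (not normalized, need not be whole), a TPM value (scaled for transcript length and library) and 2 lengths in bases. Estimated counts share reads that fit several transcripts.

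Estimated counts were rounded and tested with the quasi-likelihood test of edgeR 4.0.16 (TMM) in R 4.3.3, with 1 mean per tissue. The filter on low values was 1 TPM or more in 3 or more libraries, which left 25245 genes over 27 libraries and 23222 over the 24 outside testis. Calls required an adjusted p below 0.05 with an absolute log2 fold change of 1 or more. Alternatives were DESeq2 1.42.0, limma 3.58.1 on log2(TPM + 1) and log2(TPM + 0.1), other scalings and filters, a replicate block and each library left out. The tests were also run on counts simulated from a mean profile shared by all tissues, with some genes changed in testis. That check cannot show how calls depend on the scaling between tissues. Ratios of mean testis CPM to the pooled CPM of a tissue carry exact Poisson intervals for the tissue's counts at a confidence level of 95%. Symbols were matched without regard to case. The 10 genes and all lists were chosen with earlier results of these data known. All 10 genes are named. Of the small RNA pathway lists the highest and lowest in testis are named, and for each of the 10 the 3 genes of highest Pearson r. Every pair of gene and non-testis tissue called by the main test or with filterByExpr is named.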

Additional observations from a re-analysis of the deposited data

How the results depend on the processing

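Under all 39 alternatives the 10 genes were called higher in testis, both over the averaged 8 other tissues and over each singly. Of the 10, 6 had passed the main filter only through the testis libraries, so their calls add no support. Of all genes, 8457 were higher and 5263 lower in testis. These counts moved to 14736 higher and 1436 lower with limma on log2(TPM + 0.1), to 14480 higher and 1480 lower with library size only, and to 1312 lower with limma on log2(TPM + 1). The share of calls that were higher was 61.6%, against 90% or more in these 3 settings, and the median of all genes was between 0.889 and 1.43 there, against 0.218. Leaving out 1 library at a time gave 8123 to 8514 genes higher and 4957 to 5472 lower. The log2 fold change of tdrkh ranged from 3.37 to 5.01 over the alternatives and that of piwil1 from 8.20 to 11.19.

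Outside testis, 6 pairs of gene and tissue were called higher and 2 lower. With the main filter, 4 genes were tested there, each in every tissue other than testis. Of all genes tested, between 14.3% (heart) and 27.2% (brain) were called higher in a tissue. Between 3.47% (muscle) and 23.6% (brain) were called lower. Whether the pairs were more than for other genes was not tested, so their number is not read as a feature of these genes. Higher pairs numbered 1 with limma on log2(TPM + 1), 1 after median-of-ratios rescaling, 10 with filterByExpr, 13 with no filter (ddx4 and pld6 in muscle and in skin were added to the pairs of filterByExpr, and piwil2 in muscle was lost) and 3 without muscle replicates 2 and 3. Lower pairs numbered 4 with limma on log2(TPM + 0.1), 0 after rescaling, 4 with library size only, 4 with filterByExpr and 1 with the replicate block. Leaving out 1 library at a time gave 4 to 6 pairs higher and 1 to 3 lower. The muscle values turned to -2.54 for piwil1 and -0.50 for tdrd6 without muscle replicates 2 and 3. The brain call of tdrkh held in all 35 alternatives, with a log2 fold change of 1.87 to 3.66, whereas the liver call of henmt1 was lost in 22 of 35. More genes could be tested with the other filters, and fewer libraries without the muscle replicates; for the other moves the cause was not tested.

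The labels do not say that equal replicate numbers mark the same fish. Deviations of same-numbered libraries from their tissue means correlated at 0.0961 on average (-0.0441 to 0.255), and 47 of 108 pairs were over 0.1, so the numbers were not taken to pair the libraries. With the replicate block, 8525 genes were higher and 5281 lower in testis, and of the 8 pairs called outside testis with the main filter, henmt1 in liver was lost (adjusted p = 0.052); pairs tested only with filterByExpr were not run with the block. An offset for effective length was planned and not run, because the deposited effective lengths are the same in every library. Counts scaled from TPM were used in its place, chosen after seeing the data, and the muscle call of piwil1 was then lost (adjusted p = 0.10). Depth limits the low values, since each gene other than tdrkh had 3 counts or fewer in 6 to 21 of the 24 libraries outside testis.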

Other observations

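The deposited TPM and counts together give the mean effective length of the transcripts to which a gene's reads were assigned, a quantity chosen after seeing the data and given without a test for libraries with at least 20 counts. For tdrkh it was 1958 ± 17.2 bases in testis and 1786 ± 84.5 bases in brain (SD, n = 3 each). For piwil1 it was 2294 ± 60.3 bases in testis (SD, n = 3) and 2223 ± 97.6 bases in muscle replicates 2 and 3, whereas the single libraries with enough counts gave 1668 bases in brain, 1477 in skin and 1837 in tail. For tdrd9 it was 4235 bases in testis and likewise in tail. That value equals the deposited effective length of tdrd9, so it tells nothing about the transcripts used in tail.

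A list of oocyte and ovary genes was also measured in testis. Its 7 matched genes summed to 30.4 to 36.9 TPM in testis, against 4.19 to 7.04 TPM in brain and at most 2.11 TPM in any library of the other tissues. Of the 6 that could be tested, 5 passed the filter only through the testis libraries, so their calls are not given.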
